A study of Homo sapiens with 12 samples.

Results

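The mitochondrial ribosomal protein genes were the protein-coding genes whose symbol is MRPL or MRPS followed by a number, with a mean count of at least 100 over the 12 libraries. All 78 genes with such a symbol met this minimum, out of 61860 genes in the table and 14937 with that mean count. They comprise 49 MRPL genes, named for the large subunit, and 29 MRPS genes, named for the small subunit. The member nearest the minimum was MRPL53 with a mean of 1691 counts, and the highest was MRPL42 with 34038, so no member lay close to it.

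RNA was sequenced from 2 lines of Flp-In T-REx HEK293 cells, which derive from human embryonic kidney and carry a single recombination site for the transgene. In both lines doxycycline (1 µg/ml for 6 days) induced miRNAs against the endogenous PGC-1α together with an miRNA-resistant, FLAG-tagged PGC-1α. WT-res cells expressed the full-length protein and ΔRS-res cells a protein without the arginine/serine-rich RS domain, so every library carried the knockdown, the antibiotic and a transgene, and no uninduced library was compared. Each line grew from a colony picked after antibiotic selection, so a difference between the colonies and an effect of the RS domain cannot be told apart. Whole-cell RNA (1 well) and cytoplasmic RNA (6 pooled wells, hypotonic lysis) were taken from 3 consecutive passages of each line, 3 libraries per line and fraction, which measure the spread between passages of 1 line.

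Mitochondria have ribosomes of their own, which translate the few mRNAs encoded by mitochondrial DNA, all of them for subunits of the respiratory chain and ATP synthase. Their RNA comes from mitochondrial DNA, but all of their proteins are encoded in the nucleus, exported as mRNA, translated in the cytoplasm and imported. PGC-1α is a transcriptional co-activator of mitochondrial biogenesis, which acts with factors such as NRF1, GABPA, the estrogen-related receptors and YY1 on nuclear genes of mitochondrial proteins. Symbols follow the original naming of the proteins, and some do not follow the structure: MRPS30 and MRPS18A are now placed in the large subunit, and MRPS36 in the oxoglutarate dehydrogenase complex.

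Promoters of the members shared short sequence cores with many other genes. RefSeq promoters of 300 bases (250 before to 50 after the annotated start, GRCh38.p14) were at hand for 69 of the 78 members, 42 MRPL and 27 MRPS genes. The ETS core CCGGAAG, which GABPA recognises, was present on either strand in 30 of these 69 members (43.5%), against 16.7% of 15342 protein-coding genes and 22.7% of the 10315 with a mean count of at least 100. The YY1 core AAGATGG was present in 24 members (34.8%), against 7.95% of all protein-coding and 9.3% of expressed protein-coding genes. Both cores were found in 9 members, among them MRPL20, MRPL47, MRPL51, MRPS10 and MRPS12. The NRF1 core CGCATGCG was present in 3 members (4.35%, against 3.27% and 4.48%), and the estrogen-related receptor element TCAAGGTCA in 0 (against 0.332% and 0.223%). The ETS and YY1 cores share the letters AAG and can overlap by them, and a match is a stretch of sequence only. Promoters are shown for the members that differed most between the lines and that have a sequence, MRPL36 (chr5:1799788-1800087, minus strand) and MRPL44 (chr2:223957213-223957512, plus strand), and for 1 member of each subunit with both cores, MRPL20 (chr1:1407244-1407543, minus strand) and MRPS12 (chr19:38930694-38930993, plus strand). They are written in the direction of transcription, and capitals mark the ETS core and the YY1 core, the latter as AAGATGG or its reverse complement CCATCTT.
MRPL36: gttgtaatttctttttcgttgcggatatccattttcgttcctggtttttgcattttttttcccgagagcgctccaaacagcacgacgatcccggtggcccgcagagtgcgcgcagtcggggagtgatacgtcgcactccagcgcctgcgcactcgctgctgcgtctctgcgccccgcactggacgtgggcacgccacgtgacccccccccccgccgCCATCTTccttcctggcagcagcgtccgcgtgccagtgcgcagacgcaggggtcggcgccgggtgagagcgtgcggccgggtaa
MRPL44: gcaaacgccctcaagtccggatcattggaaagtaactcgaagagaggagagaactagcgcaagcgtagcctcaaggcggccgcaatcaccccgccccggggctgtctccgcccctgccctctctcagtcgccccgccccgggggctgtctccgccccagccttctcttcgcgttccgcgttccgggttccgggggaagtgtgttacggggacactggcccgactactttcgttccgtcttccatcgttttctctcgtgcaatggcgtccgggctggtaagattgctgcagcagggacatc
MRPL20: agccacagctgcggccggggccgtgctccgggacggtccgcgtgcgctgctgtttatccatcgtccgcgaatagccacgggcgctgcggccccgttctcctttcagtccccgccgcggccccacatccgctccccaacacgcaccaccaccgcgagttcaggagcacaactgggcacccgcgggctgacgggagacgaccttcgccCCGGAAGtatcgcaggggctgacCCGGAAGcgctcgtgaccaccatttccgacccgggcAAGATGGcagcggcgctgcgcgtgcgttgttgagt
MRPS12: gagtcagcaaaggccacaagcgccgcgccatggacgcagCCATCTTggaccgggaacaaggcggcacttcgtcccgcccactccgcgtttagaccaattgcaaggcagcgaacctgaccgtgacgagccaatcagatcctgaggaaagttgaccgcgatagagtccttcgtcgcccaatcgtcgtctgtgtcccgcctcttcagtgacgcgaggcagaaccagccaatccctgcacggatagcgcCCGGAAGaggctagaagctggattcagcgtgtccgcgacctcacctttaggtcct
MRPL36 thus held a YY1 core alone, MRPL44 held none of the 4 cores, MRPL20 held 2 ETS cores ahead of a YY1 core, and MRPS12 held a YY1 core far ahead of an ETS core.

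The libraries held from 90333190 to 144628005 expected counts, and the members took between 0.487% and 0.617% of them. Of the genes that mark this cell line, VIM ranged from 760 to 1060 CPM (counts scaled to the size of each library, by TMM over the 12 libraries), while PTPRC, CD3E, CDH5, MYH7 and ACTC1, markers of leukocytes, endothelium and muscle, reached at most 0.0468 CPM. Of the neurofilament genes on the same marker list, NEFL ranged from 183 to 372 CPM and NEFM from 0.258 to 0.694. The nuclear RNA KCNQ1OT1 stood between 21.1 and 28.6 CPM in whole-cell libraries and between 6.21 and 8.93 in cytoplasmic ones. MALAT1, also a nuclear RNA, did not separate the fractions, at 1300 to 3080 CPM in whole-cell and 993 to 1780 in cytoplasmic libraries. The third whole-cell library of WT-res went against its label. DDX19B had 22 counts there, while ΔRS-res libraries held 26 to 45 and the remaining WT-res libraries 1140 to 2058. It was kept under its label, and values without it are given beside the whole-cell and WT-res fraction results. PPARGC1A, which encodes PGC-1α and was counted over endogenous and introduced copies together, also differed between the lines in most libraries. In replicates 1 to 3 it stood at 647, 662 and 487 CPM in WT-res whole-cell RNA and at 342, 355 and 486 in ΔRS-res. In cytoplasmic RNA it stood at 682, 552 and 641 CPM against 297, 296 and 397. The part of this difference in the results was not tested.

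Levels between members were compared as TPM (a count divided by transcript length and scaled to library size). The median over the 12 libraries' means was 66.8 TPM for the 49 MRPL genes and 72.5 for the 29 MRPS genes, and single genes ranged 19.4-fold, from 12.3 to 238. Among MRPL genes the highest were MRPL12, a protein of the stalk that binds translation factors, at 227 ± 31.8 TPM (SD, n = 12) and MRPL51, a protein without a bacterial counterpart, at 213 ± 34.8. The lowest were MRPL50, also without one, at 12.3 ± 2.86 and MRPL1, a protein of the stalk near the tRNA exit site, at 21.1 ± 8.68. Among MRPS genes the highest were MRPS34, which is specific to mitochondria, at 238 ± 34.3 and MRPS24 at 172 ± 16.3, and the lowest were MRPS17 at 20.5 ± 3.01 and MRPS36 at 30.2 ± 4.43. Most neighbours in this order were not separable: only 3 of 48 adjacent MRPL pairs and 7 of 28 adjacent MRPS pairs differed by more than the larger of their SDs. The SDs include the difference between fractions, and the MRPS34 level rests on a transcript typed retained_intron for 47.1% of its counts.

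The first comparison asked whether the members differ between the lines in whole-cell RNA. No member passed the adjusted test, and the lines overlapped in the members' summed level. In bulk RNA fewer cells of a type and less RNA per cell cannot be told apart. The MRPL genes together stood at 2802, 2876 and 2750 CPM in WT-res replicates 1 to 3 and in ΔRS-res at 2862, 2783 and 2713, and the MRPS genes at 2070, 2091 and 2109 in WT-res and 2161, 2099 and 2131 in ΔRS-res. The groups overlapped in both subunits, with means of 2809 ± 63.3 and 2786 ± 74.5 CPM for MRPL and 2090 ± 19.5 and 2130 ± 31.0 for MRPS (SD, n = 3). The median log2 fold change, ΔRS-res over WT-res, was 0.02 for MRPL and 0.03 for MRPS genes, against 0.02 for the 14858 other genes with a mean count of at least 100. Without the doubted library the medians were -0.04 and -0.01, against 0.01 for other genes, the MRPL sums still overlapped, and the remaining WT-res MRPS sums lay below all 3 of ΔRS-res. At an adjusted p under 0.05 (edgeR's quasi-likelihood test over 26794 genes, Benjamini-Hochberg), 0 of the 78 members were called, as were 0.0% of all genes. By an unadjusted p under 0.05, 6 members and 3369 genes (12.6%) passed, and DESeq2's Wald test called 2 members lower, MRPL42 and MRPL50, against 2.96% of all genes called lower. The lines did not overlap for 7 members that stood higher and 8 that stood lower in ΔRS-res, against 13.2% and 11.3% of other genes. The study's own threshold (log2 fold change beyond 0.5 in either direction at an unadjusted p under 0.05) took in 1 member against 6.36% of all genes.

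The members with the lowest unadjusted p in whole-cell RNA were large subunit genes that stood lower in ΔRS-res, and MRPL42, MRPL50 and MRPL1 were called with the replicate number as a block. MRPL42, a protein without a bacterial counterpart, stood at 264, 294 and 259 CPM in WT-res, while ΔRS-res stood at 211, 230 and 218. Every ΔRS-res library lay below every WT-res library (log2 fold change -0.32, SE 0.0796, adjusted p = 0.211, and 0.0275 with the block). MRPL50 stood at 23.1, 28.5 and 27.8 CPM against 18.9, 20.9 and 18.4. Its groups did not overlap either (-0.46, SE 0.107, adjusted p = 0.211, and 0.0275 with the block). MRPL1 stood at 13.2, 19.2 and 12.4 CPM against 10.4, 11 and 6.64, again without overlap (-0.69, SE 0.24, adjusted p = 0.297, and 0.0294 with the block). MRPL32, which is processed by a mitochondrial protease on import, stood at 51.4, 55.6 and 51.4 CPM against 47.0, 46.4 and 43.7, without overlap (-0.22, adjusted p = 0.29, and 0.0505 with the block). Without the doubted library the log2 fold changes of MRPL42, MRPL50, MRPL1 and MRPL32 were -0.36, -0.43, -0.82 and -0.25, and none was called (adjusted p = 0.064, 0.109, 0.129 and 0.138). With the block and without that library all 4 were called (adjusted p = 0.00493, 0.0131, 0.0263 and 0.0378). With the block 3 members were called lower and 0 higher, against 5.17% of all genes called lower. Among MRPS genes the lowest p values belonged to MRPS12, at the decoding site of the small subunit (log2 fold change 0.14), MRPS18C (-0.17) and MRPS26 (0.13), none of them called.

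When the doubted WT-res library (replicate 3) was left out, MRPL36 was called higher and MRPL44 lower in ΔRS-res whole-cell RNA. Both are components of the large subunit, MRPL36 among its smallest proteins and MRPL44 a relative of ribonuclease III. MRPL36 stood at 27.6 and 26.9 CPM in WT-res replicates 1 and 2, at 57.4 in the third, and at 57.9, 57.1 and 57.9 in ΔRS-res. The third WT-res library thus sat with ΔRS-res and not with the other WT-res libraries. The log2 fold change was 0.62 with that library (SE 0.273, adjusted p = 0.412) and 1.06 without it (SE 0.0682, adjusted p = 0.000712). MRPL44 stood at 52.1, 53.5 and 31.9 CPM in WT-res, while ΔRS-res stood at 37.8, 36.8 and 31.8. The same library was again at the ΔRS-res level (-0.38, adjusted p = 0.492 with it, and -0.59, SE 0.0915, adjusted p = 0.0235 without it). These were the only calls among the members in that fit, 1 higher against 0.886% of all genes and 1 lower against 1.17%. With the replicate block added to that fit, a setting chosen after the data were seen, 6 members were called higher, against 7.32% of all genes, and 6 lower, against 9.11%, with MRPL36 and MRPL44 among them (adjusted p = 0.000435 and 0.00259).

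**Figure D1:**
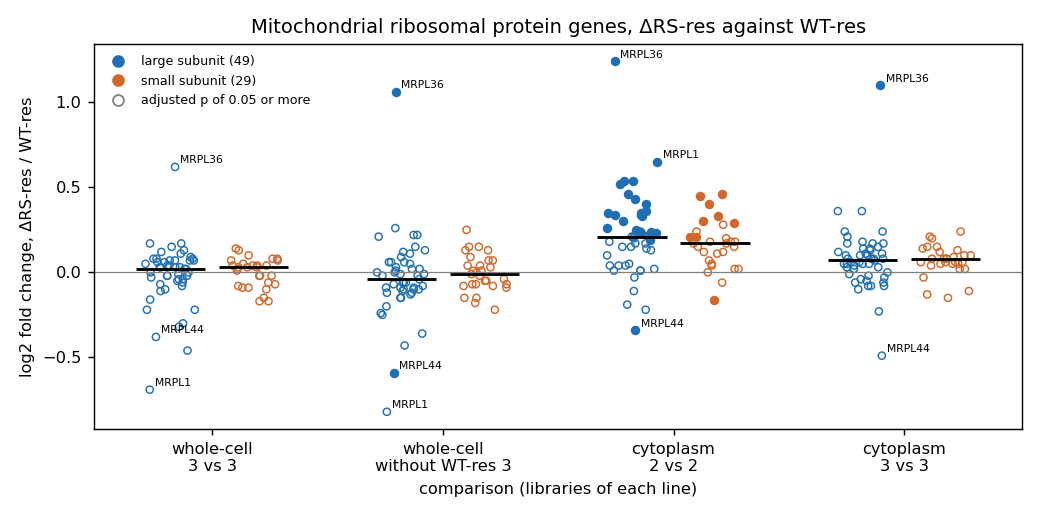
Log2 fold change of ΔRS-res over WT-res for each member in 4 comparisons, whole-cell RNA with 3 libraries per line and without WT-res replicate 3, and cytoplasmic RNA with 2 and with 3 libraries per line. Filled points passed an adjusted p under 0.05 and black lines are the medians of each subunit; the medians stand near 0 in whole-cell RNA, at 0.21 and 0.17 with 4 cytoplasmic libraries and at 0.07 and 0.08 with 6.

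In cytoplasmic RNA the study compared 4 libraries, WT-res replicates 1 and 3 with ΔRS-res replicates 1 and 2, and in these many members were higher in ΔRS-res. Of the 78 members 29 were called higher, 21 MRPL and 8 MRPS genes (37.2% of the members), against 10.7% of the 25810 genes tested and 16.8% of the other genes with a mean count of at least 100. Another 2 were called lower, MRPL44 and MRPS27, against 11.4% of all genes. The median log2 fold change was 0.21 for MRPL and 0.17 for MRPS genes, against 0.00 for other genes of that mean count, and 70 of 78 members were above 0. The changes were small, and 5 members passed the study's threshold against 13.1% of all genes. In whole-cell RNA the same scale gave medians near 0. The difference between fractions was tested separately below over all 12 libraries, and not with these 4 cytoplasmic libraries alone.

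The genes with the largest called changes in the 4 libraries were MRPL36 (log2 fold change 1.24, SE 0.08, adjusted p = 0.000818), MRPL1 (0.65, SE 0.101, adjusted p = 0.00815) and MRPL35 (0.54, SE 0.0495, adjusted p = 0.00175) in the large subunit. In the small subunit they were MRPS11 (0.46, SE 0.0595, adjusted p = 0.00456), MRPS7 (0.45, SE 0.0506, adjusted p = 0.0029) and MRPS12 (0.40, SE 0.045, adjusted p = 0.00297). MRPS7 and MRPS11 are counterparts of bacterial proteins of the head and platform of the small subunit. MRPL20, also called (0.46, SE 0.0467, adjusted p = 0.00231), was picked as an example after its values were seen.

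Of the 29 members called higher, 1 was called when the libraries left out were added, and all 29 stayed above 0. Calls higher among all genes went from 10.7% to 0.57%. Of other genes with a mean count of at least 100 called higher, 94.3% stayed above 0. The libraries removed were WT-res replicate 2 and ΔRS-res replicate 3. Of the 29 members, 28 had the removed WT-res library above both kept ones. All 29 had the removed ΔRS-res library below both kept ones. A call higher picks genes low in the kept WT-res and high in the kept ΔRS-res libraries, which favours this pattern. The counts for other called genes are not given here, so these are not a result about the members. MRPL20, whose bacterial counterpart acts early in assembly of the large subunit, stood at 64.6 and 67.1 CPM in the kept WT-res libraries and at 88.9 in the removed one. The ΔRS-res values were 88.1 and 91.0 CPM in the kept libraries and 63.0 in the removed one, so each removed library stood near the kept libraries of the other line. MRPS7 stood at 79.3, 111 and 84.0 CPM in WT-res replicates 1 to 3 and at 108, 113 and 82.3 in ΔRS-res, so the lines overlapped over most of their range. MRPS11 stood at 31.6, 42.1 and 33.1 CPM against 42.2, 45.5 and 29.9, with the same pattern. MRPL1 stood at 15.9, 28.4 and 18.4 CPM against 24.4, 28.5 and 14.1, with the lowest of the 6 values in ΔRS-res. Over all 78 members the removed WT-res library was the highest of its line for 57 genes and the removed ΔRS-res library the lowest of its line for 60, against 38.6% and 40.5% of other genes. Relative to the mean of 6 cytoplasmic libraries their median log2 deviation was -0.14, 0.07 and -0.03 in WT-res replicates 1 to 3 and 0.04, 0.15 and -0.08 in ΔRS-res, while that of other genes stayed between -0.02 and 0.02. In the same order MALAT1 stood at 1780, 993 and 1110 CPM in WT-res and 1150, 1020 and 1520 in ΔRS-res. Mitochondrially encoded RNA took 0.328%, 0.129% and 0.0919% of the WT-res counts and 0.185%, 0.129% and 0.248% of the ΔRS-res counts. Both measures were thus highest in WT-res replicate 1 and ΔRS-res replicate 3, which had the lowest member levels, and their part in the result was not tested. Leaving out any 1 of the 4 libraries gave between 11 and 49 members called, with 49 without WT-res replicate 3, 18 without ΔRS-res replicate 1 and 11 without ΔRS-res replicate 2, the lone library of a line being assumed to vary like the other line's.

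With all 6 cytoplasmic libraries only MRPL36 was called, against 0.57% of all genes called higher. This comparison shares 4 libraries with the one before. The median log2 fold change was 0.07 for MRPL and 0.08 for MRPS genes, against 0.01 for other genes of that mean count, and 60 of 78 members were above 0. The MRPL genes together stood at 3188, 3659 and 3461 CPM in WT-res, while ΔRS-res stood at 3551, 3761 and 3301, and the MRPS genes at 2268, 2504 and 2414 against 2485, 2582 and 2400. The lines overlapped in both sums, with means of 3436 ± 236 and 3538 ± 230 CPM for MRPL and 2395 ± 119 and 2489 ± 91.1 for MRPS (SD, n = 3). Every ΔRS-res library was above every WT-res library for 11 members and below for 4, against 10.2% and 9.92% of other genes. By an unadjusted p under 0.05, 10 members passed, against 10.8% of all genes, and 1 passed the study's threshold against 5.67% of all genes.

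MRPL36 (ENSG00000171421, chromosome 5, 1798385 to 1801366, GRCh38) was the 1 member called with all 6 cytoplasmic libraries. In the cytoplasm it stood at 28.7, 32.0 and 30.9 CPM in WT-res, while ΔRS-res stood at 64.7, 74.3 and 56.8. The groups were far apart (log2 fold change 1.10, SE 0.11, adjusted p = 0.00337 with 6 libraries, and 0.0665 in the joint fit of 12). MRPL44 (ENSG00000135900, chromosome 2, 223957463 to 223967714) stood at 60.4, 70.6 and 63.1 CPM in WT-res, while ΔRS-res stood at 48.0, 48.2 and 41.6. Its groups did not overlap, but the call depended on the fit (-0.49, SE 0.096, adjusted p = 0.0572 with 6 libraries, and -0.34, SE 0.046, adjusted p = 0.00523 with 4). MRPL35 stood at 36.2, 45.4 and 38.2 CPM against 52.9, 53.9 and 45.8 in ΔRS-res, where the lowest ΔRS-res value was just above the highest WT-res value (0.36, SE 0.112, adjusted p = 0.261). MRPL42 stood at 346, 375 and 385 CPM against 303, 315 and 320, lower in every ΔRS-res library as in whole-cell RNA (-0.23, adjusted p = 0.271). MRPS12 stood at 62.4, 74.9 and 63.8 CPM against 80.8, 83.4 and 72.2, with overlap (0.24, adjusted p = 0.432). MRPS27, a protein with pentatricopeptide repeats, stood at 205, 214 and 211 CPM against 182, 185 and 198, without overlap (-0.15, adjusted p = 0.48).

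The members with the most positive and the most negative fold change in the cytoplasm, MRPL36 and MRPL44, lay among genes that mostly deviated in the same direction. Of the members next in size, MRPL41 (0.36) had a neighbour median of 0.15, MRPL35 (0.36) of 0.03, MRPS12 (0.24) of -0.02 and MRPL42 (-0.23) of 0.0. For each member the neighbours were the other genes with a mean count of at least 100 whose lower coordinate lies within 5 Mb, members left out, and their median log2 fold change was taken over the 6 cytoplasmic libraries. The neighbours of MRPL36, itself at 1.1, had a median of 1.96, and all 36 of them were above 0, between 0.32 and 2.43. They were not uniform. Those at least 3.59 Mb away toward higher coordinates lay between 0.65 and 1.0. Toward lower coordinates TERT was at 0.32 and the rest lay between 1.3 and 2.43. The nearest, NDUFS6, which encodes a complex I subunit and has its lower coordinate 3022 bases away, was at 1.07. The neighbours of MRPL44 had a median of -0.45, and 36 of 39 were below 0. The neighbours of MRPS30 (chromosome 5, 44808947 to 44820428) had a median of 0.35, with 20 of 22 above 0 and the nearest at -0.03. MRPS30 itself stood at 149, 150 and 165 CPM in WT-res, while ΔRS-res stood at 175, 173 and 187 without overlap, and its own change was not called (0.21, SE 0.0744, adjusted p = 0.331). In whole-cell RNA without WT-res replicate 3 the neighbour medians were 2.0, -0.41 and 0.26 for MRPL36, MRPL44 and MRPS30, and those of the other 75 members lay between -0.22 (MRPS28) and 0.11 (MRPL40). In the cytoplasm, for the other 75 members the neighbour median lay between -0.08 (MRPL50) and 0.15 (MRPL41), with MRPS35 next to the lower end at -0.06. Across the 78 members the fold change and the neighbour median had a Pearson correlation of 0.79, and of 0.25 without these 3, which describes genes measured in the same libraries. The part of the chromosomal position in the fold changes was not tested.

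Whether the line difference itself changed between fractions was tested as an interaction over all 12 libraries. The test called 0 of 78 members, against 0.00375% of all genes, and by an unadjusted p under 0.05 it passed 3 members, against 5.52% of all genes. DESeq2's Wald test called 0 members as well. Leaving out any single library also gave 0. The largest interaction among the genes named here was that of MRPL1 (log2 0.78, SE 0.419, adjusted p = 0.991). A line difference that varied with the fraction was thus not detected for any member with these 12 libraries.

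Within each line more members were called higher than lower in cytoplasmic against whole-cell RNA, and the number depended on the transcripts and libraries counted. Values are relative to all other RNA of a library. In WT-res 28 members were called higher in the cytoplasm (17 MRPL, 11 MRPS), against 12.0% of 26583 genes and 20.1% of other genes with a mean count of at least 100, and 1 lower, against 22.4%. In ΔRS-res 47 were called higher (28 MRPL, 19 MRPS), against 17.0% of 26590 genes and 28.4% of those other genes, and 1 lower, against 24.1%. All 28 members called higher in WT-res were among the 47 of ΔRS-res, and these comparisons share no library. The median log2 ratio of the members was 0.24 in WT-res and 0.27 in ΔRS-res. Other genes with a mean count of at least 100 had medians of 0.13 and 0.11, so the members stood 0.11 and 0.16 above them. Over protein_coding transcripts alone 4 members were called higher in WT-res, against 4.84% of all genes and 5.77% of other genes of that mean count, and 21 in ΔRS-res, against 14.9% and 17.9%. The members' medians were then 0.10 and 0.15, against 0.06 and 0.04 for those other genes. Leaving out single WT-res libraries brought the number called down to as few as 6. By same-numbered libraries 50 members were higher in the cytoplasm in all 6 pairs, 1 was lower in all 6 and 27 were mixed. Of other genes with a mean count of at least 100, 41.0% were higher and 28.7% lower in all 6 pairs.

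The large subunit genes with the largest called ratios in WT-res were MRPL19, MRPL10 and MRPL42. MRPL19, a protein at the interface of the subunits, stood at 98.1 ± 4.27 CPM in whole-cell and 136 ± 9.13 in cytoplasmic WT-res RNA (SD, n = 3), and at 91.9 ± 3.63 and 142 ± 0.888 in ΔRS-res. The fractions did not overlap in either line (log2 ratio 0.46, adjusted p = 0.00705 in WT-res, and 0.63, adjusted p = 0.000155 in ΔRS-res). MRPL10, of the stalk, had ratios of 0.45 (adjusted p = 0.00583) and 0.37 (adjusted p = 0.00202), and MRPL42 of 0.43 (adjusted p = 0.0119) and 0.52 (adjusted p = 0.000568). In ΔRS-res the largest were MRPL1 (1.26, SE 0.284, adjusted p = 0.00899), MRPL50 (0.79, SE 0.0942, adjusted p = 0.000372) and MRPL47 (0.74, SE 0.104, adjusted p = 0.000886). Of these MRPL50 was called in WT-res as well (0.42, adjusted p = 0.0235), while MRPL1 (0.48, adjusted p = 0.177) and MRPL47 (0.30, adjusted p = 0.111) were not. The whole-cell libraries in which these genes stood lower in ΔRS-res also enter this ratio. Among MRPS genes MRPS10 (0.54, adjusted p = 0.00397 in WT-res, and 0.49, adjusted p = 0.000674 in ΔRS-res) and MRPS9 (0.44, adjusted p = 0.0118, and 0.59, adjusted p = 0.000192), both counterparts of bacterial head proteins, rose in both lines.

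MRPS25 (ENSG00000131368, chromosome 3, 15009611 to 15065339) was the only member called lower in the cytoplasm, and it was so in both lines. It stood at 161, 157 and 162 CPM in WT-res whole-cell RNA and at 87.5, 87.0 and 82.2 in the cytoplasm. In ΔRS-res it stood at 149, 162 and 148 CPM and at 87.0, 94.8 and 81.9. The fractions were far apart in each line (log2 ratio -0.91, SE 0.0773, adjusted p = 7.8e-05 in WT-res, and -0.80, SE 0.0784, adjusted p = 0.000127 in ΔRS-res), and no difference between the lines was called in either fraction. MRPS25, a protein specific to the mitochondrial small subunit, had 32 transcripts in the file. The leading one, ENST00000420267 of 8173 bases, is typed nonsense_mediated_decay and carried 32.3% ± 2.71 of the gene's counts in whole-cell and 21.9% ± 1.6 in cytoplasmic libraries. Transcripts typed protein_coding carried 17.6% and 25.3%. Counted over those alone, the ratio was -0.47 (adjusted p = 0.0818) in WT-res and -0.52 (adjusted p = 0.0169) in ΔRS-res. The gene overlaps NR2C2, a nuclear receptor gene, and the use of strand in counting was not given in the sources used here.

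**Figure D2:**
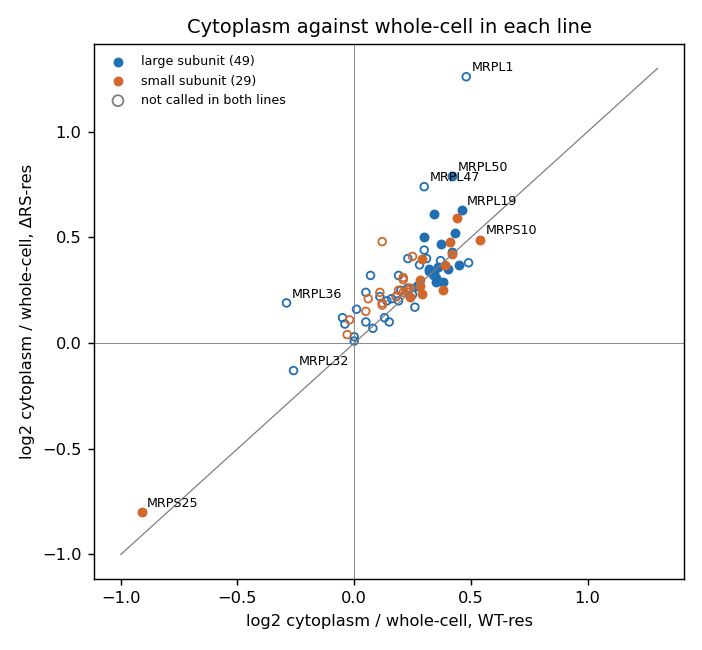
Log2 ratio of cytoplasmic to whole-cell RNA for each member in WT-res and in ΔRS-res, with the diagonal of equal ratios. Filled points were called in both lines, 28 of them higher and MRPS25 lower; MRPL1 and MRPL47 lie above the diagonal, and their difference between lines was not called.

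The type of transcript differed between the fractions for the members as a whole. Transcripts typed protein_coding held 87.8% ± 0.483 of the members' counts in whole-cell and 91.1% ± 0.222 in cytoplasmic libraries (SD, n = 6), and no cytoplasmic library lay below 90.8% or whole-cell library above 88.4% (exact permutation test, two-sided, p = 0.00216). The share in transcripts typed retained_intron was 4.3% ± 0.0975 and 2.68% ± 0.053, and in those typed nonsense_mediated_decay 4.77% ± 0.3 and 3.57% ± 0.121, again without overlap (p = 0.00216 each in exact permutation tests, the smallest these 6 against 6 libraries can give). These tests took no account of line or replicate number and treat all libraries as independent, so their p values may be too small. By gene, the protein_coding share was higher in the cytoplasm for 48 members, lower for 9 and equal for 21. The same shares and counts for other genes are not given here, so whether these differences are particular to the members is not shown. Between the lines in the cytoplasm the protein_coding share did not separate (exact permutation test, two-sided, p = 1.0, where the smallest possible is 0.1).

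At the level of single transcripts the study's threshold was met by few member transcripts. By edgeR's quasi-likelihood test 0 of them passed an adjusted p under 0.05 in any line comparison. The share of all transcripts that passed it is not given here, so this 0 is not a result about the members. In whole-cell RNA 8 of 504 tested member transcripts were higher and 4 lower in ΔRS-res (2.38%, against 5.25% of all transcripts). In the 4 cytoplasmic libraries 41 of 498 were higher and 7 lower (9.64%, against 8.78%), and in all 6 libraries 12 of 505 were higher and 3 lower (2.97%, against 4.06%). The study defined a nuclear export target as a transcript lower in the ΔRS-res cytoplasm that did not pass the threshold in whole cells. By that definition 7 of 485 member transcripts, from 6 genes, were counted with the 4 libraries (1.44%, against 4.32% of all transcripts), and 2 of 492 with all 6 (0.407%, against 1.74%). Most were minor isoforms. The most abundant by share was an MRPL32 transcript typed nonsense_mediated_decay with 13.1% of its gene's counts (log2 fold change -0.55 in the cytoplasm, unadjusted p = 0.0299 by edgeR's test), followed by an MRPL37 transcript typed protein_coding with 7.58% (-0.61, unadjusted p = 0.0031 by edgeR's test). The others carried at most 2.78%. The 2 found with all 6 libraries were of MRPS35 and MRPS27 and were not among the 7.

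Other genes of mitochondrial translation were taken as 3 lists and are given beside the members. Of non-member genes with a mean count of at least 100, 16.8% were called higher and 17.5% lower in ΔRS-res with 4 cytoplasmic libraries. With 6 libraries these shares were 0.794% and 1.43%, and 1.81% were lower in whole-cell RNA without WT-res replicate 3. Between fractions 20.1% were higher and 23.3% lower in the cytoplasm of WT-res, and 28.4% and 24.9% in ΔRS-res. The 5 mitochondrial ribosomal proteins with other symbols (DAP3, AURKAIP1, CHCHD1, PTCD3 and GADD45GIP1) had 2 called higher in ΔRS-res with 4 cytoplasmic libraries, AURKAIP1 (log2 fold change 0.44, adjusted p = 0.00361) and CHCHD1 (0.37, adjusted p = 0.0164), and 0 with 6. In the cytoplasm relative to whole-cell RNA 2 were higher in WT-res and 3 in ΔRS-res, with DAP3, a GTP-binding protein of the small subunit, at 0.28 (adjusted p = 0.0296) and 0.23 (adjusted p = 0.0355). Of 27 assembly factors 8 were higher and 5 lower with 4 cytoplasmic libraries, led by MPV17L2 (0.84, adjusted p = 0.00104) and TRUB2, a pseudouridine synthase (0.64, adjusted p = 0.00118). With 6 libraries only FASTKD2, an RNA-binding protein of large subunit assembly on chromosome 2 like MRPL44, was called (-0.45, adjusted p = 0.048). In whole-cell RNA without WT-res replicate 3 it was lower too (-0.62, adjusted p = 0.0162), as was MTERF4, which acts in rRNA methylation and also lies on chromosome 2 (-0.66, adjusted p = 0.0102). PTCD3 and MTIF2 of these lists lie on chromosome 2 as well and were called in neither comparison. They were at 0.06 and -0.08 with 6 cytoplasmic libraries, and at 0.05 and -0.23 in that whole-cell fit. Between fractions 4 assembly factors were higher and 2 lower in WT-res, and 8 higher and 2 lower in ΔRS-res. Of 13 translation factors 3 were higher in ΔRS-res with 4 cytoplasmic libraries, led by TSFM, the exchange factor of the elongation factor TUFM (0.59, adjusted p = 0.00166), and 0 with 6. Between fractions 2 were higher in WT-res and 7 in ΔRS-res, among them the initiation factors MTIF2 (0.55, adjusted p = 0.0114, and 0.79, adjusted p = 0.000146) and MTIF3 (0.41, adjusted p = 0.0295, and 0.81, adjusted p = 0.000217), and 0 were lower. In the order given, the list medians were 0.21, 0.11 and 0.09 with 4 cytoplasmic libraries and 0.06, -0.0 and 0.05 with 6. Between fractions they were 0.28, 0.18 and 0.1 in WT-res and 0.23, 0.18 and 0.24 in ΔRS-res, against 0.13 and 0.11 for those non-member genes.

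The choice of library and fit bore on the fraction comparison as well. Leaving out the doubted WT-res whole-cell library, the WT-res comparison called 21 members higher, 12 MRPL and 9 MRPS genes, against 13.9% of all genes. Without any single WT-res library the number called in either direction lay between 6 and 23, with 6 without cytoplasmic replicate 3, 11 and 14 without whole-cell replicates 1 and 2, and 16 without cytoplasmic replicate 2. In ΔRS-res it lay between 30 and 61, with 30 without whole-cell replicate 2 and 31 without cytoplasmic replicate 2. With the replicate number as a block 32 members were called higher in WT-res, against 15.4% of all genes, and 63 in ΔRS-res, against 26.3%. By the study's threshold 2 members passed in WT-res, against 31.2% of all genes, and 8 in ΔRS-res, against 33.8%.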

How the data were processed

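RNA from 12 libraries was depleted of rRNA and sequenced (KAPA RNA HyperPrep with RiboErase). The authors ran nf-core/rnaseq, with Trim Galore, STAR and RSEM against GRCh38 and Ensembl release 107, and deposited RSEM's expected counts for each transcript, without scaling. Tool versions inside the pipeline are not given in the sources used here. RSEM divides reads among isoforms and near-identical copies, so shares of single transcripts are estimates.

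Columns were matched to samples by their description. Expected counts were rounded, summed per gene, annotated with GENCODE 44 (103 genes had no match) and analysed with edgeR 4.0.16 under R 4.3.3 (TMM, quasi-likelihood test, genes with a mean count above 2, Benjamini-Hochberg over all genes tested). SE is the log2 fold change divided by the square root of F. TPM used annotated transcript lengths. Alternatives were DESeq2 1.42.0 (size factors, Wald test), other filters, the study's threshold, protein_coding transcripts, a replicate block, joint fits and each library left out. The tests were tried on simulated data.

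Members, gene lists and comparisons were chosen with earlier results of these data known. Named were, per comparison and subunit, the 3 called genes with the largest change, filled by lowest p, the 2 highest and 2 lowest levels per subunit, the 3 highest and 3 lowest neighbour medians, and up to 2 called genes per list. Replicates are consecutive passages, so p-values measure the spread between passages. In whole-cell RNA, libraries with the same number shared deviations from the group means (Pearson's r 0.545, 0.55 and 0.683 over 14937 genes), as they did between the fractions of ΔRS-res (0.518, 0.466 and 0.797). Cytoplasmic libraries of the lines shared them in replicates 2 and 3 but not in replicate 1 (-0.42, 0.619 and 0.467). The same held between the fractions of WT-res (-0.167, 0.588 and 0.473). The 3 deviations of a gene in a group are tied by their common mean, so these r values are not independent of each other. They were not recomputed without the doubted WT-res whole-cell library, and do not by themselves show that same-numbered libraries are pairs. No 2 libraries of a group were copies (chi-square per gene of at least 21.8). Libraries of different groups were not compared in this way. No genome sequence was read, and proteins were not analysed here.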

Additional observations from a re-analysis of the deposited data

How the results depend on the processing

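With all transcripts, the 78 members stayed 78 at a minimum mean count of 10. In whole-cell RNA, where 0 members were called, 1 passed the study's threshold, 2 the DESeq2 Wald test, 2 the joint fit of 12 libraries, 3 the fit with the replicate block, and 12 (6 higher, 6 lower, against 12.4% and 15.2% of other genes with a mean count of at least 100) the block without WT-res replicate 3, a setting added after the data were seen. Leaving out each library gave between 0 and 2. With 4 cytoplasmic libraries, where 31 were called in either direction, 5 passed the study's threshold and single removals gave between 11 and 49. With all 6, where 1 was called, 2 passed the DESeq2 Wald test, 2 the fit without a filter on low counts, 2 the replicate block and 0 the joint fit, while single removals gave 1 each. The interaction gave 0 at an adjusted p under each alternative, while 1 member passed the study's threshold with the replicate block. Between fractions in WT-res, where 29 were called, 2 passed the study's threshold, 19 the fit without a filter and 4 the protein_coding transcripts, whose median was 0.104 in place of 0.242, and single removals gave between 6 and 23. In ΔRS-res, where 48 were called, 8 passed the study's threshold, 22 the protein_coding transcripts, whose median was 0.146 in place of 0.27, and single removals gave between 30 and 61. All genes in WT-res split into 3191 higher and 5945 lower, into 4350 and 5656 with DESeq2's size factors in the same edgeR test, and into 4825 and 5518 with DESeq2's size factors and Wald test. No named gene changed direction in the comparison that named it. No paired analysis was possible for the 4 cytoplasmic libraries because they share only 1 replicate number, and the block changed no count by more than 1.5 times other than those given. Members had at least 804 counts in each library, so counting error is small beside the spread between passages.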

Other observations

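MRPL20 (chromosome 1, 1401909 to 1407293) differed between the fractions in its isoform shares more than in its gene total. Its leading transcript ENST00000344843, typed protein_coding, carried 79.7% ± 1.11 of the gene's counts in whole-cell and 92.8% ± 0.542 in cytoplasmic libraries (SD, n = 6). The transcript ENST00000487659, typed retained_intron, carried 8.3% ± 0.996 and 2.22% ± 0.227, and ENST00000482352, typed protein_coding, 8.59% ± 0.437 and 1.75% ± 0.188. The gene total hardly differed between the fractions (log2 ratio 0.01 in WT-res and 0.16 in ΔRS-res, neither called, and 0.15 in ΔRS-res with the replicate block, adjusted p = 0.0362). MRPL20 overlaps the antisense gene MRPL20-AS1, and these shares come from RSEM's division of reads.

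MRPS30 counts were divided between ENST00000507110, typed protein_coding (51.5% ± 1.71 in whole-cell and 54.6% ± 1.28 in cytoplasmic libraries), and ENST00000230914, for which the annotation defines no coding sequence (48.2% ± 1.68 and 45.3% ± 1.23). MRPL42 carried most of its counts in a pair of transcripts of 15560 and 15557 bases, ENST00000552217 with 45.8% ± 9.0 and 41.4% ± 1.87 and ENST00000549982 with 22.8% ± 7.28 and 18.8% ± 1.83, whose SD between libraries was larger in whole-cell RNA.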
